A study of Homo sapiens with 16 samples.

Results

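The neuronal pentraxins NPTX1 and NPTX2 and the membrane-anchored neuronal pentraxin receptor NPTXR were followed in H1, an established human embryonic stem cell line, over a course of BMP4 treatment. The members were taken by gene symbol from the array's platform annotation. All 3 genes had a named probe (4 probes for NPTX1, 1 for NPTX2 and 1 for NPTXR), out of 20046 named genes, and the brightest probe of each gene was used as its level. All 3 also passed the filter on dim probes, as did 13261 genes in all. The cells grew in mTeSR medium on Matrigel and either received bone morphogenetic protein 4 (BMP4) at 100 ng/ml or were left untreated. Their RNA was measured on 16 Illumina bead arrays, with 1 array for each arm and day from day 0 to day 7, which makes 8 per arm. It is not stated how many cultures were used, or whether the BMP4 array of day 0 was taken before or after the ligand was added. All p-values therefore measure the spread between arrays of neighbouring days, which includes any trend within a window and may be technical.

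Neuronal pentraxins are secreted proteins with a C-terminal pentraxin domain, related to the acute-phase protein CRP. In the brain they assemble into multimers, bind the extracellular part of AMPA-type glutamate receptors and help to cluster these receptors at excitatory synapses. NPTXR carries a transmembrane segment and can be shed by the metalloprotease ADAM17. NPTX2, also called Narp, is known as a gene that neurons switch on with activity. In human pluripotent stem cells NPTX1 has been described as a secreted factor that favours neural fate by lowering NODAL signalling through the co-receptor TDGF1. The genes lie on different chromosomes: in GRCh38.p14 NPTX1 is at chr17:80466834-80476607, NPTX2 at chr7:98617285-98629869 and NPTXR at chr22:38818452-38844028.

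The set was chosen by the measured difference between BMP4 and untreated cells, in which NPTX1 had the lowest value of all 13261 tested genes both on days 1 to 3 and on days 4 to 7. Levels between the arms are therefore given for the members as a description, with no test. Intensities are the authors' deposited values, quantile normalized and linear, and a level under 135 cannot be told from background (the floor, the 99th percentile of an estimated background). Differences are on a log2 scale after background correction and addition of an offset of 16, so those of dim probes are understated. Days 1 to 3 (n = 3 arrays per arm) and days 4 to 7 (n = 4 per arm) were pooled for tests.

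As a check of the label, 11 of 12 fixed pluripotency markers had a named probe, and all of these were above the floor on every array of both arms. Their summed intensity lay between 14877 and 47184 in the BMP4 arm and between 34799 and 40915 in the untreated arm. Of 14 neuronal markers 11 were above the floor on at least 1 array of the BMP4 arm, and 11 on at least 1 untreated array. These were not all the same genes, since 12 of the 14 passed the filter on dim probes. The summed intensity of the 14 markers ran from 4006 to 7127 in the BMP4 arm and from 5254 to 7536 in the untreated arm. RBFOX3, a marker of mature neurons, did not pass the filter on dim probes. In bulk RNA fewer cells of a type and less RNA per cell cannot be told apart, here and in every result that follows.

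NPTX1 was far lower in the BMP4 arm on every day, and the gap was already open at day 0. On days 0 to 7 its brightest probe read 285, 184, 137, 119, 133, 119, 119 and 119 in the BMP4 arm. In the untreated arm it read 1071, 1330, 1532, 823, 1059, 1144, 646 and 646 on the same days. The arms did not overlap: the highest BMP4 value, at day 0, was below the lowest untreated one. Only the BMP4 arrays of days 0, 1 and 2 were above the floor, the last of them barely, and all 8 untreated arrays were above it. Among the 13261 tested genes 4.99% had every BMP4 array below every untreated array over days 0 to 7, and NPTX1 was the 1 member of 3 that did.

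**Figure D1:**
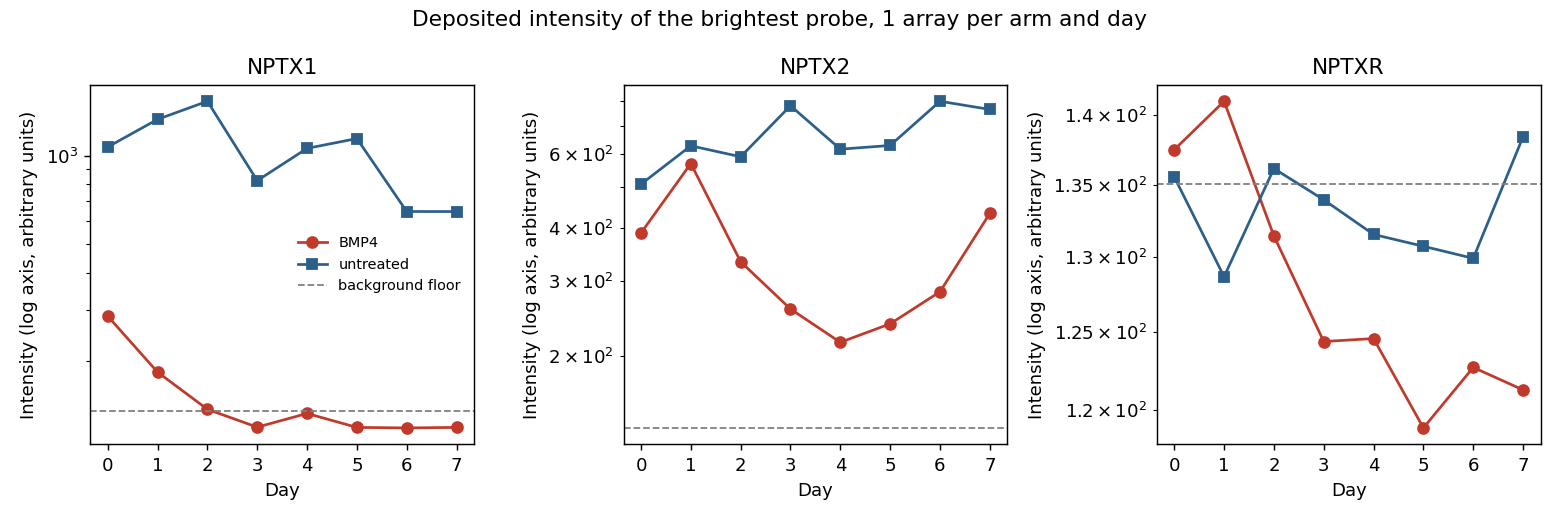
Deposited intensity (log axis) of the brightest probe of NPTX1, NPTX2 and NPTXR by day, 1 point per array, in BMP4 and in untreated cells, with the background floor of 135 as a dashed line. NPTX1 is at most 285 in the BMP4 arm and at least 646 in the untreated arm, NPTX2 dips to 215 in the BMP4 arm at day 4, and NPTXR stays between 119 and 141 in both arms.

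The day 0 arrays of the arms differed for NPTX1 by -2.41 on the log2 scale, which is 5.30-fold lower in the BMP4 arm, with 1 array each and so no error. Among 10304 genes above the floor on both day 0 arrays only 2 had a lower difference, while the median over those genes was 0.06 and 5.59% of them differed by 1 or more in either direction. Of 8 known BMP target genes, picked after the data were seen, 6 were higher on the BMP4 array of day 0 and 2 lower. The higher ones differed by 0.21 to 0.95 on the log2 scale, SMAD7 the most, and ID2 and ID3 by -0.57 and -0.55. MSX2, 1 of the 6, read 127 with BMP4 and 116 without, both under the floor. Over the 10304 genes the SD of the day 0 difference was 0.51. The share of those genes that were higher by such amounts was not counted. ID1, an inhibitor of basic helix-loop-helix factors, read 2033 on the BMP4 array and 1219 on the untreated array of day 0, against 9999 and 1510 on day 1. ID3, of the same family, was lower on the BMP4 array of day 0, at 2228 and 3222, and then read 10188 with BMP4 and 3066 without on day 1. SMAD6, an inhibitory SMAD, read 190 with BMP4 and 178 without at day 0, and 954 and 174 at day 1. At day 0 the median difference of the 11 measured pluripotency markers was 0.56, higher in the BMP4 arm, and the part of these differences in the NPTX1 gap was not tested.

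After day 0 the NPTX1 gap grew. The log2 difference between the arms was -3.91 on day 1, -5.33 on day 2, -4.98 on day 3, -4.92 on day 4, -5.52 on day 5, -4.59 on day 6 and -4.58 on day 7. From day 3 on the BMP4 array was under the floor, so these log2 values are not measured sizes, and the data give only a bound: at least 21.6-fold lower on day 3, 28.7-fold on day 4, 31.2-fold on day 5 and 16.3-fold on days 6 and 7. Averaged over days 1 to 3 the BMP4 arm had an intensity of 147 ± 33 and the untreated arm 1228 ± 365 (SD, n = 3 each), a log2 difference of -4.74. Since 2 of those 3 BMP4 arrays were above the floor, NPTX1 was at least 23.5-fold lower there. Over days 4 to 7 it averaged 123 ± 7.0 with BMP4 and 874 ± 265 without (SD, n = 4 each), no BMP4 array was above the floor, and it was at least 22.1-fold lower. The log2 difference of days 4 to 7, -4.90, shrank to -2.78 without background correction and to -2.50 once the day 0 difference was subtracted, and that of days 1 to 3 shrank to -3.04 and -2.33.

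**Figure D2:**
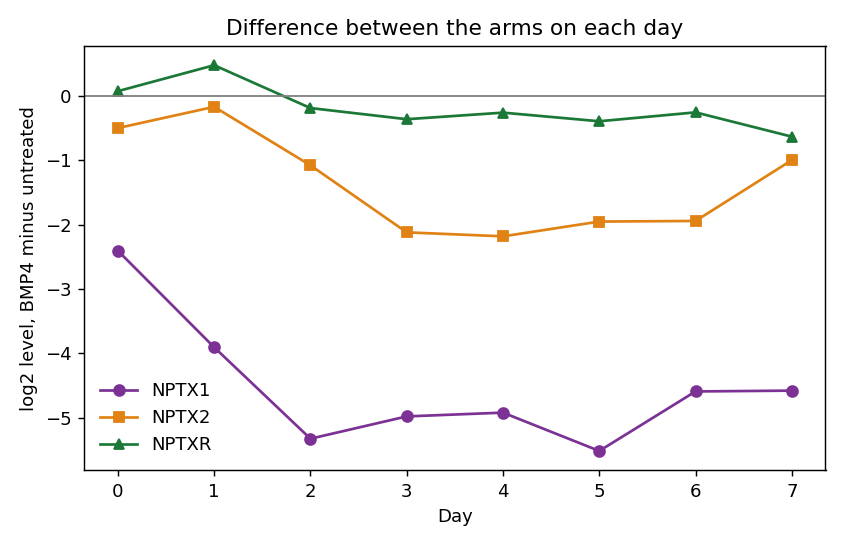
Log2 level in BMP4 cells minus that in untreated cells on each day for the 3 members, from 1 array per arm and day. The NPTX1 line starts at -2.41 and reads -5.52 on day 5, with the BMP4 array under the floor from day 3 on, the NPTX2 line is at -0.50 on day 0 and lowest, at -2.18, on day 4, and the NPTXR line stays between -0.63 and 0.48.

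The change within each arm was not the value by which the set was chosen, and it was tested by limma across all 13261 genes. It rests on the same arrays, so its p-values are not independent of that choice. Within the BMP4 arm NPTX1 was lower on days 4 to 7 than on days 1 to 3 by a log2 difference of -0.72 (SE 0.35), which did not pass (limma adjusted p = 0.145). In the untreated arm the same difference was -0.55 (SE 0.35, limma adjusted p = 0.791). None of the 3 members passed in either arm, where 26.8% of all tested genes were called in the BMP4 arm (12.9% higher, 13.9% lower) and 0.0754% were called in the untreated arm in either direction. That outcome in the BMP4 arm depended on where day 3 was placed: with windows of days 1 to 2 and days 3 to 7 all 3 passed there (NPTX1 -1.15, limma adjusted p = 0.0136), as they did without the BMP4 array of day 3 (NPTX1 -1.13, limma adjusted p = 0.0192). The share of all tested genes called in these other fits was not counted, so the 3 calls cannot be set against it. Without the BMP4 array of day 1 the NPTX1 difference was -0.21 (limma adjusted p = 0.680). A straight line over days 0 to 7, added after the data were seen, gave a fall of NPTX1 in the BMP4 arm by 0.38 on the log2 scale per day (SE 0.07, limma adjusted p = 1.75e-04), with 21.4% of all tested genes called lower by that line. Since the BMP4 arrays of days 3 to 7 were under the floor, the slope and the window differences of NPTX1 in that arm partly compare signal at background and are not measured folds. In the untreated arm the line gave -0.15 per day (SE 0.07), which did not pass (limma adjusted p = 0.224), where 3.48% of all tested genes did in either direction. That course was uneven, since the untreated array of day 3 read less than those of days 4 and 5.

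The remaining NPTX1 probes were dim, and they bear on the size of the gap. The second probe lay between 104 and 127 in the BMP4 arm, under the floor on all 8 arrays, and between 132 and 195 in the untreated arm, above it on 7 of 8. Its arms did not overlap either. The third probe ranged from 99.6 to 117 in the BMP4 arm and from 122 to 183 in the untreated arm, where 6 of 8 arrays were above the floor. The dimmest probe was under the floor on all 16 arrays and its arms overlapped, with 105 to 121 in BMP4 cells and 108 to 125 in untreated cells. Across the 16 arrays the log2 level of the second and the third probe followed that of the brightest with Pearson's r of 0.91 and 0.85, and the dimmest probe with 0.27. These values come from the same arrays and are no independent replicates. Over days 4 to 7 the second probe was at least 1.60-fold and the third at least 1.26-fold lower with BMP4.

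**Figure D3:**
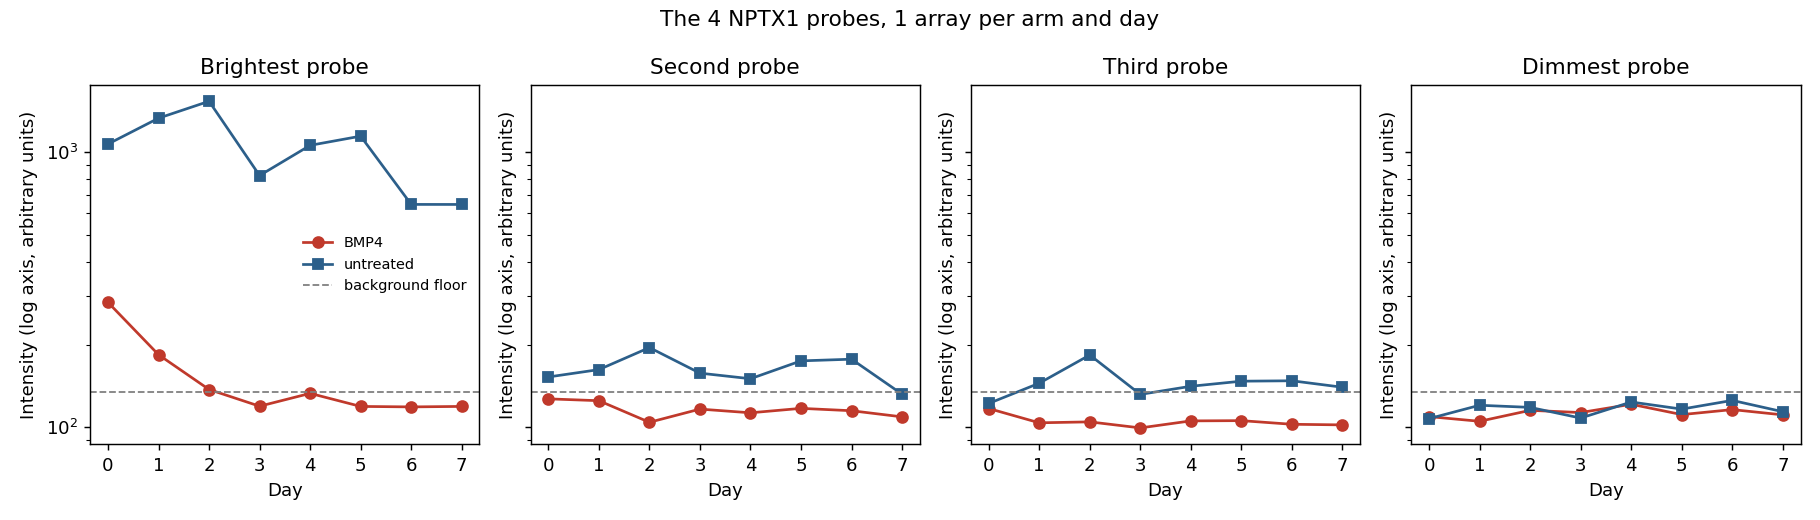
Deposited intensity (log axis) of the 4 NPTX1 probes by day, 1 point per array, in BMP4 and untreated cells, ordered from the brightest to the dimmest, with the floor of 135 dashed. The brightest probe separates the arms widely, the second and the third separate them close to the floor, and the dimmest stays under the floor on all 16 arrays.

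NPTX2, the activity-regulated pentraxin, was lower in the BMP4 arm as well, but its course had a dip and a return. Its promoter is the only one of the 3 members' promoters matched in the RefSeq table used (GRCh38.p14), and the 250 bases before its start are printed here because NPTX2 is known for its control at the level of transcription. Capitals mark the letters TGACG, the core of a cyclic AMP response element, and CCAAT, the CCAAT box.
NPTX2 promoter, chr7:98617035-98617284, plus strand: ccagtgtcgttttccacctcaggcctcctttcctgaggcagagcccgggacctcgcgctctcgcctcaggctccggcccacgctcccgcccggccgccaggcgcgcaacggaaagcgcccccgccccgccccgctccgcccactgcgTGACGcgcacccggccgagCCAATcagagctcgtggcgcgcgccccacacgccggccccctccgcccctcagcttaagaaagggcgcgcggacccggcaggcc
The window is 75.6% G and C, against a median of 58.0% over the same window of 27305 promoters. TGACG starts 103 bases and CCAAT 84 bases before the start of the gene, and on both strands searched 21.7% and 33.0% of all promoters held these letters. The GC box GGGCGG was found 5 times, and 42.3% of promoters held it. The letters GGCGCC, which BMP-responsive SMAD proteins can bind, and the octamer ATGCAAAT were not found, and 16.1% and 1.66% of promoters held them. No binding was measured, so these are letters in a window and not sites.

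On days 0 to 7 NPTX2 read 390, 569, 334, 258, 215, 238, 283 and 434 in the BMP4 arm. The untreated arm read 509, 627, 591, 780, 616, 628, 799 and 764. All 16 arrays were above the floor, so NPTX2 was measured throughout. The BMP4 array lay below the untreated array on each of the 8 days, with the smallest gap on day 1 and the widest on day 4. NPTX1 also did so on each day, and 11.4% of all tested genes did. At day 0 the NPTX2 difference was -0.50, within the bulk of the 10304 genes, of which 1402 were lower.

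Over days 1 to 3 NPTX2 averaged 387 ± 162 in BMP4 cells and 666 ± 100 in untreated cells (SD, n = 3 each), a log2 difference of -1.12 or 2.18-fold lower. Over days 4 to 7 it averaged 293 ± 98 with BMP4 and 702 ± 93 without (SD, n = 4 each), a log2 difference of -1.77 or 3.41-fold lower. With the day 0 difference subtracted these log2 differences were -0.62 and -1.27. In neither window did the arms overlap (19.3% of all tested genes had every BMP4 array below every untreated array on days 1 to 3), and with both windows joined every BMP4 array of days 1 to 7 was below every untreated array for NPTX1 and NPTX2, as for 9.96% of all tested genes. The margin for NPTX2 was small, since the BMP4 array of day 1 read 569 and the untreated array of day 2 read 591. Over days 0 to 7 the arms overlapped, the untreated array of day 0 being lower than the BMP4 array of day 1.

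Within the BMP4 arm the NPTX2 difference of days 4 to 7 against days 1 to 3 was -0.56 (SE 0.33, limma adjusted p = 0.237), and within the untreated arm it was 0.09 (SE 0.33, limma adjusted p = 0.976). Neither passed. The window of days 4 to 7 holds both the lowest BMP4 value and the return to 434 on day 7, which lay above the BMP4 arrays of days 2 to 6 and above that of day 0. The return rests on the arrays of days 6 and 7. Without the BMP4 array of day 7 the within-arm difference was -0.87 and passed (limma adjusted p = 0.0451). Without the BMP4 array of day 1 it was -0.12 and did not pass.

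NPTXR was close to background in both arms. On days 0 to 7 its only probe read 137, 141, 131, 124, 125, 119, 123 and 121 in the BMP4 arm. In the untreated arm it read 136, 129, 136, 134, 132, 131, 130 and 138. Only the BMP4 arrays of days 0 and 1 and the untreated arrays of days 0, 2 and 7 were above the floor of 135, and no fold is given because in both windows the means of both arms lay under it. Over days 1 to 3 the intensities were 132 ± 8.3 in BMP4 cells and 133 ± 3.8 in untreated cells (SD, n = 3 each), and the arms overlapped. Over days 4 to 7 they were 122 ± 2.4 with BMP4 and 133 ± 3.9 without (SD, n = 4 each), with no overlap and a log2 difference of -0.38 between levels that mostly cannot be told from background. In that window 23.3% of all tested genes had every BMP4 array below every untreated array, and all 3 members did.

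The within-arm difference of NPTXR between days 4 to 7 and days 1 to 3 was -0.37 in the BMP4 arm (SE 0.17, limma adjusted p = 0.110) and -0.012 in the untreated arm (SE 0.17, limma adjusted p = 0.992). Neither passed. The straight line over days 0 to 7 gave a fall in the BMP4 arm by 0.11 on the log2 scale per day (SE 0.03, limma adjusted p = 0.0122). In the untreated arm it gave 0.0033 per day (limma adjusted p = 0.969). As the BMP4 arrays from day 2 on were under the floor, the slope in that arm is a change of signal near background and not a measured fold.

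Across the 16 arrays the log2 levels of NPTX1 and NPTX2 had a Pearson's r of 0.83, which the gap between the arms carries in part. Within the 8 BMP4 arrays r was 0.55 and within the 8 untreated arrays it was -0.77. NPTX1 and NPTXR had r = 0.89 within the BMP4 arm and -0.17 within the untreated arm. NPTX2 and NPTXR had r = 0.70 and -0.06 in these arms. All arrays share a normalization and each arm is a time course, so these are descriptions. In the BMP4 arm NPTX1 was under the floor from day 3 on and NPTXR from day 2 on. Most untreated NPTXR arrays were under it as well, so these r rest partly on background signal.

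The genes whose log2 level followed NPTX1 most closely over the 16 arrays were PEBP1 (r = 0.976), an inhibitor of RAF kinases, TARS1 (0.973), a threonyl-tRNA synthetase, GTF3C6 (0.972), a subunit of a general factor of RNA polymerase III, TYW3 (0.971), a tRNA-modifying enzyme, and PTGES3 (0.969), a co-chaperone of HSP90. Within the BMP4 arm these 5 had r of 0.87 to 0.98 with NPTX1, and within the untreated arm 0.13 to 0.82. The r within the BMP4 arm rest partly on background, since NPTX1 was under the floor there from day 3 on. PEBP1 shared the day 0 gap, with 2233 on the BMP4 array and 6293 on the untreated array, and over days 4 to 7 it averaged 1428 with BMP4 and 5477 without. TARS1 read 1336 and 1529 on those day 0 arrays and averaged 669 and 1852 over days 4 to 7.

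Closest to NPTX2 were SLC45A3 (r = 0.974), a solute carrier, FILIP1 (0.962), which encodes a filamin-interacting protein, PNCK (0.951), a calcium and calmodulin-dependent kinase, INPP5D (0.948), an inositol phosphatase, and CYTL1 (0.944), a secreted cytokine-like protein. They were picked for this likeness. Within the BMP4 arm they had r of 0.86 to 0.99 with NPTX2, and within the untreated arm 0.39 to 0.91. FILIP1 averaged 221 with BMP4 and 277 without over days 1 to 3, and 169 with BMP4 and 317 without over days 4 to 7. Closest to NPTXR were CPT1C (r = 0.951), a brain-type carnitine palmitoyltransferase relative that associates with AMPA receptors, ALPL (0.950), the alkaline phosphatase of undifferentiated stem cells, CHST7 (0.925), DPYSL4 (0.925) and BAIAP2L2 (0.920). These 5 were well above the floor, unlike NPTXR itself: ALPL averaged 2343 in BMP4 cells and 4134 in untreated cells over days 4 to 7, and read 4862 and 4314 at day 0.

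**Figure D4:**
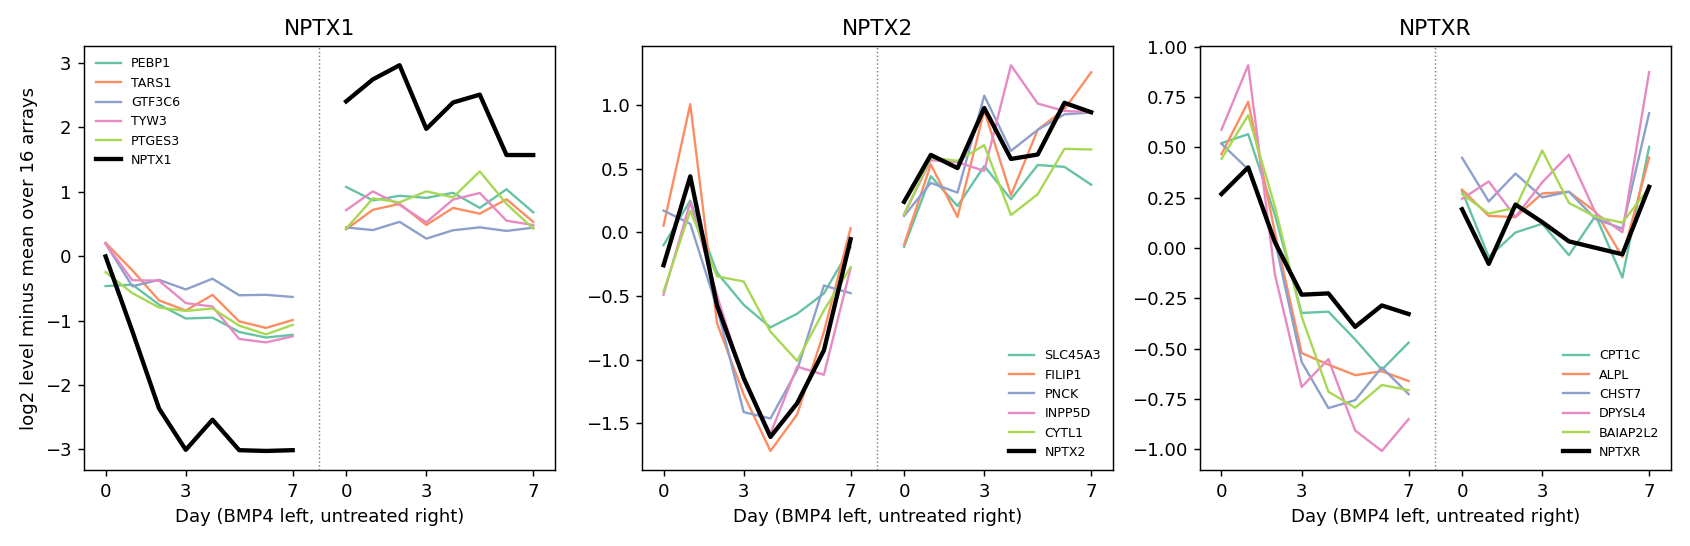
Log2 level minus each gene's own mean over 16 arrays, by day, with the BMP4 arm left and the untreated arm right of the dotted line, for each member (black) and the 5 genes with the highest Pearson's r to it. NPTX1 spans a wider range than its closest genes, NPTX2 dips and returns together with them in the BMP4 arm, and NPTXR falls less than its closest genes there.

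Genes around the neuronal pentraxins were then taken from 10 lists of 124 genes, which hold other pentraxins, AMPA receptor and synapse genes, NODAL signalling, and markers of neural ectoderm, neurons and pluripotent cells, of which 118 had a named probe and 81 passed the filter. By limma 28 of the 81 differed between the arms on days 1 to 3, 11 higher and 17 lower with BMP4, where 29.7% of all tested genes were called (16.3% higher, 13.4% lower). On days 4 to 7 there were 58 calls, 15 higher and 43 lower, where 54.5% of all tested genes were called (27.6% higher, 26.9% lower). The median log2 difference of the 81 genes was -0.0065 early and -0.58 late, beside 0.04 and 0.0034 over all tested genes. For genes of the lists, rose or fell means higher or lower in the BMP4 arm than in untreated cells, not a change over time. With the day 0 difference between the arms subtracted 6 were called early, all lower, and 26 late, 2 higher and 24 lower. The share of all tested genes called after that subtraction was not counted, here or for the single lists below. The day 0 arrays, 1 per arm, enter that subtraction with their own error. Of the 41 changes that the naming rule picked from the lists, 10 were still called after it, which were those of NLGN4X, NLGN3, HOMER1, SMAD3, SOX2, OTX2, SYT1, USP44 and DNMT3B late and of OTX2 early.

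The receptors that neuronal pentraxins bind were mostly at background. Of the 4 AMPA receptor subunit genes all had a probe and 1, GRIA3, passed the filter, with a log2 difference of 0.03 early and -0.04 late (limma adjusted p = 0.952 and 0.914). Of 4 further pentraxin genes 3 had a probe and 1, PTX4, passed the filter, with differences of 0.15 and -0.08 that did not pass (limma adjusted p = 0.626 and 0.740). Among the AMPA receptor auxiliary proteins 6 of 15 were tested, with 1 higher and 1 lower early and 1 higher and 3 lower late. CNIH2, a cornichon protein that slows receptor closing, fell by 0.92 on the log2 scale early and by 1.45 late (limma adjusted p = 6.09e-04 and 3.50e-07). CNIH3, its close relative, moved the other way, by 1.52 early (limma adjusted p = 0.00130), and was at least 2.45-fold higher late over an untreated arm with no array above the floor (limma adjusted p = 1.04e-04). Both gaps were open at day 0, at -1.23 for CNIH2 and 1.94 for CNIH3, and neither gene passed once these were subtracted, when CNIH3 turned to -0.43 early and -0.41 late and CNIH2 to 0.31 early and -0.22 late. CACNG7, a regulatory subunit of AMPA receptors, had a log2 difference of -0.58 late that passed (limma adjusted p = 0.0457), a call lost without background correction (limma adjusted p = 0.0586), in 8 of 14 fits that left out 1 array (up to 0.137) and with day 0 subtracted (0.256).

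Of the 5 genes for pentraxin partners and the sheddase 3 were tested. ADAM17, which sheds NPTXR, was 1.57-fold higher early and 1.56-fold higher late (limma adjusted p = 0.00338 and 4.75e-04). With day 0 subtracted neither passed (limma adjusted p = 0.374 and 0.228). RCN2, a calcium-binding protein that binds neuronal pentraxins inside the cell, had a log2 difference of -0.33 early that passed (limma adjusted p = 0.0328) and -0.18 late that did not (0.128). The early call was lost in 5 of 14 fits that left out 1 array and with day 0 subtracted (limma adjusted p = 0.192). C1QA, of the complement protein C1q that NPTX2 binds, had 0.03 and 0.02 (limma adjusted p = 0.926 and 0.931).

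Of 20 other organizers of excitatory synapses 10 were tested, with 1 higher and 4 lower early and 1 higher and 6 lower late, and a median log2 difference of -0.47 early and -0.59 late. After subtraction of day 0 there were 0 higher and 1 lower early, and 0 higher and 4 lower late. NLGN4X, a neuroligin, fell 2.35-fold early and 4.87-fold late (limma adjusted p = 7.21e-05 and 5.02e-09). The presynaptic neurexin NRXN2 was 2.38-fold lower early and 4.12-fold lower late (limma adjusted p = 0.00296 and 2.31e-06). Its gap of -1.29 at day 0 left a value of 0.04 early and -0.75 late after subtraction, neither past the threshold. NLGN3 was at least 1.34-fold lower early and at least 1.86-fold lower late, with no BMP4 array above the floor (limma adjusted p = 1.38e-04 and 8.62e-08). CBLN1, a secreted synaptic organizer that like the pentraxins bridges a synapse, rose 3.16-fold early (limma adjusted p = 9.25e-04) and had a difference of -0.53 late that did not pass (limma adjusted p = 0.116).

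Of 16 activity-regulated genes, the class to which NPTX2 belongs in neurons, 10 were tested. On days 1 to 3 DUSP1, a phosphatase of MAP kinases, rose 1.93-fold (limma adjusted p = 0.00291), while HOMER1, a scaffold of glutamate receptor synapses, was at least 2.13-fold lower (limma adjusted p = 1.24e-04) and ARC, which removes AMPA receptors from synapses, at least 1.57-fold lower (limma adjusted p = 0.00138). On days 4 to 7 there were 3 higher and 5 lower, with a median of -0.69. EGR1, a zinc finger factor of the immediate-early response, was 5.61-fold lower (limma adjusted p = 1.03e-04), HOMER1 at least 2.28-fold lower (limma adjusted p = 1.69e-06) and DUSP1 2.67-fold higher (limma adjusted p = 5.88e-06). After subtraction of day 0 the late counts were 0 higher and 2 lower, HOMER1 being 1 of these (limma adjusted p = 0.0472). EGR1 and DUSP1 did not pass late (limma adjusted p = 0.105 and 0.0658). The early counts were 0 higher and 1 lower. DUSP1, HOMER1 and ARC did not pass early (limma adjusted p = 0.453, 0.197 and 0.354).

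In the list of NODAL and TDGF1 signalling, the pathway tied to NPTX1 in stem cells, 12 of 14 genes were tested and TDGF1 had no named probe. Early 6 rose and 1 fell, with a median log2 difference of 0.61, and late 6 rose and 2 fell, with a median of 0.33. The median of the list was already 0.60 at day 0. After subtraction of day 0 none rose and 1 fell early, and 1 rose and 1 fell late. The ligand gene NODAL averaged 992 in BMP4 cells and 160 in untreated cells on days 1 to 3, 14.8-fold higher (limma adjusted p = 1.19e-04). On days 4 to 7 it averaged 212 and 130, at least 2.04-fold higher (limma adjusted p = 0.0372), and with the day 0 difference of 1.78 subtracted it turned to -0.49. The late call was also lost without background correction (limma adjusted p = 0.105). SMAD3, which carries the NODAL signal to the nucleus, was 2.78-fold higher late (limma adjusted p = 1.00e-06), and still passed with day 0 subtracted (log2 difference 1.53, limma adjusted p = 0.00879). LEFTY2, an inhibitor of NODAL, was 4.56-fold higher early and 16.1-fold higher late (limma adjusted p = 0.00470 and 1.43e-06), GDF3, a related ligand, was 5.10-fold higher early (limma adjusted p = 2.45e-04), and neither passed with day 0 subtracted.

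Genes of early neural ectoderm were mostly lower with BMP4 than without late, with a median of -1.69. Of 16 tested out of 22, 1 was higher and 5 were lower early, and 2 were higher and 10 lower late. In part the late gaps came with an increase in untreated cells. Untreated SIX3, FEZF1 and LHX5 averaged 123, 121 and 123 early, and 428, 287 and 198 late. All 3 increases passed (limma adjusted p = 0.00358, 0.0157 and 0.0206). Their BMP4 averages were under the floor in both windows. The same test did not pass for SOX3, SOX2 or OTX2 (limma adjusted p = 0.888, 0.799 and 0.243). The neural and stem cell factors SOX3 and SOX2 were 14.1-fold and 12.9-fold lower late, and OTX2, of the forebrain, 12.9-fold (limma adjusted p = 5.91e-08, 4.63e-09 and 1.79e-08). POU3F1, which promotes neural fate, was 3.25-fold lower early (limma adjusted p = 2.72e-04). The 2 genes higher late were NCAM1, at least 6.30-fold, and CDH2, 1.78-fold (limma adjusted p = 1.33e-07 and 1.01e-04). With day 0 subtracted 1, NCAM1, was higher and 7 were lower late. SOX3 had a day 0 gap of -1.81 and POU3F1 of -1.21. With these subtracted SOX3 late (-2.01, limma adjusted p = 0.0611) and POU3F1 early (-0.49, limma adjusted p = 0.686) did not pass. Of the 14 neuronal markers 12 were tested, with 2 lower early, and 1 higher and 8 lower late, which became none early and 0 higher and 2 lower late with day 0 subtracted. SYT1, of synaptic vesicles, fell 1.94-fold late and MAP2, of dendrites, 2.17-fold (limma adjusted p = 1.91e-05 and 2.84e-04), while SNAP25, of the vesicle fusion machinery, was at least 1.44-fold higher (limma adjusted p = 7.77e-05). Early, MAP2 was at least 1.77-fold lower, with 1 of 3 BMP4 arrays above the floor (limma adjusted p = 0.00340), and SYN1, of synaptic vesicles too, fell by 0.48 on the log2 scale (limma adjusted p = 0.0375, and 0.0531 with day as a block). Of the 11 tested pluripotency markers 2 fell early and 10 fell late, with a median late difference of -1.14. USP44, a deubiquitinase, was 8.44-fold lower late (limma adjusted p = 3.63e-08) and the DNA methyltransferase gene DNMT3B 3.50-fold lower (limma adjusted p = 3.17e-07). The part of these changes in the courses of the pentraxin genes was not tested.

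**Figure D5:**
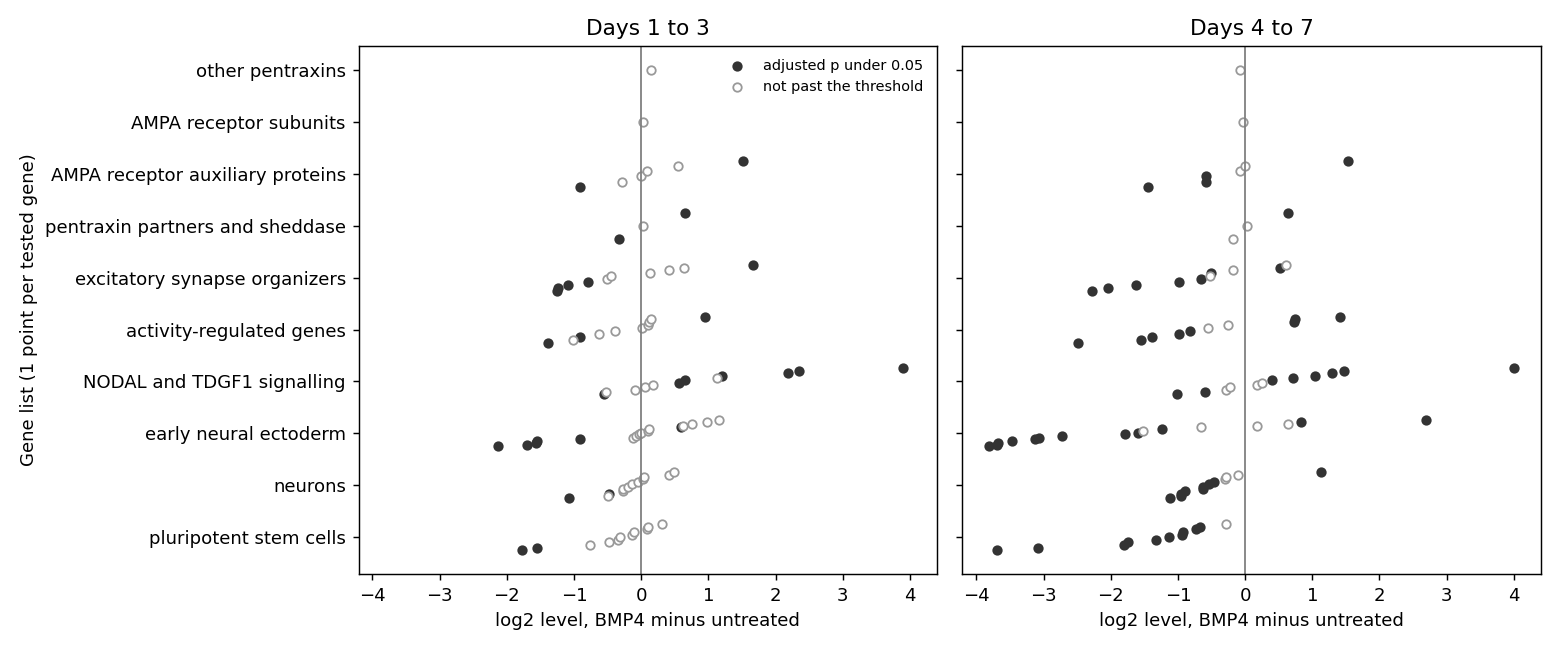
Log2 level in BMP4 cells minus that in untreated cells for each of the tested genes of the 10 lists, on days 1 to 3 (left) and days 4 to 7 (right), with filled points for genes past an adjusted p of 0.05. The AMPA receptor subunit and further pentraxin lists hold 1 point each near 0, and on days 4 to 7 most points of the neural ectoderm and pluripotency lists lie below 0.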

How the data were processed

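Biotinylated cRNA was made with a TotalPrep amplification kit and hybridized to Illumina bead arrays, per the labels' protocols. The values are the intensity values the authors deposited in the series' value table. Read from the values, they are linear and quantile normalized: once sorted, the arrays lie within 0.00215 (log2) of each other, and their median is 128. The sources used here do not name the scanner, the software or the method. All 32 columns of a deposited non-normalized table match no sample's labels and were not used, so no detection p-value was available and the number of arrays limits precision. Instead, background was modelled by mirroring the lower flank of the distribution of all values around its mode of 118, which gave an SD of 7.82 and the floor. Intensities were corrected by the normexp model with these settings, 16 was added and log2 taken (limma 3.58.1, R 4.3.3).

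Probes above the floor on at least 3 arrays were kept. Of 47323 probes 30113 have 1 gene symbol, 8 have several, and the rest have none in the annotation. Of those with 1 symbol 30074 matched the RefSeq table. One limma fit held a mean per arm and window, with an intensity trend, Benjamini-Hochberg adjustment over 13261 genes and two-sided tests at 0.05. Where an arm had no array above the floor, or a mean under it, a change is "at least N-fold": arrays of the dim arm under the floor were set to the floor before averaging. The fit was tested on simulated data. The labels give both arms the same days, so a fit with day as a block was an alternative, beside others on correction, offset, filter, probes, windows, day 0 and left-out arrays.

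The members and lists were chosen with earlier results of these data known. Named were, per list and window, up to 3 called genes with the largest change and, per member, the 5 genes with the highest r. Tested genes of lists with no call are named as examples. SIX3, FEZF1, LHX5, NCAM1 and CDH2 were named outside this rule. BMP target genes at day 0 were added after the data were seen.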

Additional observations from a re-analysis of the deposited data

Results flagged for a closer look

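The NPTX1 level of BMP4 cells on day 4, 4.98 on the log2 scale, stood apart from those of days 5 to 7 in the same arm. All 4 of these arrays were under the floor, and chance sets a sample apart in about 1 of 20 groups, with 12 groups examined.

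By a limma test of the difference itself, the gap between the arms differed between the windows for 10 of the named related genes. The share of all tested genes that did so was not counted. The genes had been named for a large change in at least 1 of these windows. A change in untreated cells also enters: untreated OTX2 was 1.13 higher late than early on the log2 scale, which did not pass (limma adjusted p = 0.243). The late minus early log2 difference was -2.60 for NODAL (adjusted p = 0.0405), -2.19 for CBLN1 (adjusted p = 0.00481), -2.14 for SOX2 (adjusted p = 0.00278), -2.12 for OTX2 (adjusted p = 0.00600) and -1.68 for SOX3 (adjusted p = 0.0421). It was -1.43 for POU3F1 (adjusted p = 0.0223), -1.33 for DNMT3B (adjusted p = 0.00661), -1.30 for USP44 (adjusted p = 0.0403), -1.05 for NLGN4X (adjusted p = 0.00912) and -0.77 for SYT1 (adjusted p = 0.0308).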

How the results depend on the processing

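Between the arms NPTX1 and NPTX2 kept their direction under every alternative run, NPTX2 with -0.62 and -1.27 when day 0 was subtracted. The NPTX1 difference of days 1 to 3 was -3.04 without background correction, -3.86 with an offset of 50, -1.94 as the mean of all probes and -2.33 with day 0 subtracted. That of days 4 to 7 was -2.78, -3.72, -1.88 and -2.50 in the same order, and that of day 0 was -0.86 as the mean of probes, which includes dim ones. The NPTXR difference of days 4 to 7 was -0.12 without correction and -0.17 with an offset of 50. Within the BMP4 arm all 3 members passed when the windows were days 1 to 2 and days 3 to 7 (NPTX1 -1.15, adjusted p = 0.0136; NPTX2 -0.95, adjusted p = 0.0494; NPTXR -0.51, adjusted p = 0.0389), and by the straight line NPTX1 (-0.38 per day) and NPTXR (-0.11 per day) did. Without the BMP4 array of day 3 all 3 passed as well (-1.13, -0.91 and -0.52). For those windows and without that array the share of all tested genes called was not counted. Leaving out single arrays gave -1.13 to -0.21 for NPTX1, -0.91 to -0.12 for NPTX2 and -0.52 to -0.21 for NPTXR in that arm, the weakest each without the BMP4 array of day 1. In untreated cells no call was gained. NPTX2 ran from -0.0054 (without the array of day 2) to 0.23, and NPTXR from -0.096 to 0.052, turning positive without the arrays of days 2 (0.052), 3 (0.0081), 4 (0.0027), 5 (0.013) or 6 (0.024), with the other windows (0.018) and by the line (0.0033). Related genes called were 6 early and 26 late with day 0 subtracted, against 28 and 58, and 24 to 34 early and 53 to 59 late without single arrays. With day as a replicate block 40 of the 41 changes of named related genes were still called, SYN1 on days 1 to 3 being lost (-0.48, adjusted p = 0.0531), and the lists held 31 calls early and 59 late. With day 0 subtracted 10 of the 41 were called, and CNIH3 (-0.43 early, -0.41 late), CNIH2 (0.31 early), NRXN2 (0.042 early) and NODAL (-0.49 late) turned. On days 1 to 2 alone OTX2 (-1.29), NRXN2 (-0.82), LEFTY2 (1.07), RCN2 (-0.39) and SYN1 (-0.34) did not pass. Calls lost by leaving out 1 array were those of CACNG7 late (BMP4 days 2, 4, 5 and 6, untreated days 1, 3, 5 and 6; -0.62 to -0.47), NODAL late (BMP4 days 4 and 5, untreated days 5, 6 and 7; 0.60 to 1.33), RCN2 early (BMP4 days 1, 2 and 3, untreated days 1 and 2; -0.35 to -0.27) and SYN1 early (BMP4 day 3, untreated days 1, 2 and 3; -0.50 to -0.32). The causes were not tested. With 1 array per arm and day, and signals at background for NPTXR and for NPTX1 in BMP4 cells from day 3, sizes there are limited by signal.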
